A study of Mus musculus with 158 samples.

Results

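The albumin gene cluster was followed through the DNase I hypersensitivity maps of F1 hybrid mice. Its members were Alb, Afp, Afm and Gc, 4 of the 21755 protein-coding genes of the GENCODE vM21 annotation on GRCm38 (mm10). They were chosen by name, as genes of the albumin family on chromosome 5, and the rule used no measured value, although earlier results of these data were known when they were chosen. Alb (ENSMUSG00000029368) lay at chr5:90460897-90476602 on the plus strand, Afp (ENSMUSG00000054932) at chr5:90490737-90508907 on the plus strand and Afm (ENSMUSG00000029369) at chr5:90518932-90553543 on the plus strand. Gc (ENSMUSG00000035540) lay apart from them at chr5:89417522-89457898 on the minus strand. For each gene the measured interval was the gene body with 20 kb on both sides, and the stretch from 20 kb before Alb to 20 kb after Afm was also read as one locus.

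The family encodes secreted carrier proteins made mainly by hepatocytes. Alb encodes serum albumin, which carries fatty acids, bilirubin and many drugs. Afp encodes alpha-fetoprotein, the albumin-like protein of fetal blood, whose gene is active in fetal liver and yolk sac and is shut down after birth. Afm encodes afamin, a vitamin E binding plasma glycoprotein, and Gc encodes the vitamin D binding protein. In hepatocytes these genes are known targets of the liver-enriched factors HNF1, HNF4, FOXA and C/EBP, and the Alb and Afp genes are known to be served by enhancers at a distance from their promoters. A DNase I hotspot is a stretch of chromatin cut by DNase I more often than its surroundings, as at active promoters, enhancers and insulators.

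The animals were F1 offspring of C57BL/6J (B6) females, and each hybrid is named for the strain of its father: B6x129, B6xC3H (C3H/HeJ), B6xCAST (CAST/EiJ), B6xPWK (PWK/PhJ) and B6xSPRET (SPRET/EiJ). None carried an engineered allele or received a treatment, and all were adult (8 weeks old). Whole liver, whole kidney and whole lung, usually pooled from several mice, hold many cell types each, while the B cells came from femoral marrow of females depleted of CD43 and CD11b bearing cells. In all, 138 DNase-seq libraries (43 liver, 37 kidney, 28 lung and 30 B cell, 2 to 14 for each hybrid and tissue) had been pooled by the authors into 20 hotspot sets, 1 for each hybrid and tissue, and the 5 hybrids served here as repeats. Many libraries share a sample number in their titles, and for most sets the paper gives fewer biological replicates than libraries. The library counts are thus not counts of independent samples. Mouse embryonic stem cells (mESCs) of the B6xCAST cross, grown in 2i/LIF, gave 1 DNase-seq set from 2 libraries and 1 CTCF ChIP-seq set, and 17 adult RNA-seq samples came as gene tables. Liver, kidney and lung RNA came from B6xPWK, B6xSPRET and B6xC3H alone, and B cell RNA from these and B6xCAST. No RNA sample came from B6x129, so RNA and hotspots did not cover the same hybrids. The paper lists the B cell RNA sample labelled B6xCAST as B6xC3H, so its hybrid is in doubt.

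The sets differed in depth. Liver sets held 211762 to 295565 hotspots, kidney sets 186061 to 238917, lung sets 152006 to 281978 and B cell sets 78387 to 156078, so that every liver set held more hotspots than every B cell set. At gene starts, the 3 hepatocyte markers Ttr, Apoa1 and Serpina1a had a hotspot in all 5 liver sets and in no lung or B cell set, although Ttr also had one in 4 kidney sets and Serpina1a in 2. Of the 3 kidney tubule markers, Slc12a1 had one in 5 and Slc34a1 in 4 kidney sets alone, while Umod had one in 5 kidney and 4 liver sets. The 3 lung epithelium markers Sftpb, Sftpc and Scgb1a1 had one in all 5 lung sets, and Scgb1a1 also in 2 liver sets. The B lymphocyte markers Cd79a, Cd79b and Pax5 had one in all 5 B cell sets, but also in 4 or 5 lung sets and 1 or 2 liver sets. Among macrophage markers, Adgre1, Cd68 and Clec4f had one in all 5 liver sets, Clec4f in no other tissue and the other two also in all 5 lung sets, whereas Csf1r had none in any set. The endothelial markers Pecam1, Cdh5 and Stab2 had one in 4 liver sets each, and the stem cell marker Sox2 had one in all 5 liver, kidney and lung sets, so a start hotspot was not specific to 1 cell type for every marker. The part of other cell types in the results below was not tested. In such bulk material fewer cells of a type and less signal in each of its cells cannot be told apart.

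The sequences of the promoters of the 4 genes and of strong liver sites away from gene starts are shown first. Liver hotspots lay over the promoters of Alb, Afm and Gc, whereas no adult or mESC hotspot lay over the Afp promoter. The promoter sequences came from RefSeq (GRCm38.p6), as the bases just before the RefSeq start: chr5:90460620-90460869 for Alb, chr5:90490464-90490713 for Afp, chr5:90518699-90518931 for Afm (ended where the GENCODE gene begins) and, on the minus strand, chr5:89457899-89458148 for Gc. Each is written 5' to 3' on the strand of its gene. Capitals mark words for HNF1 (GTTAAT), C/EBP (TTGCNNAA), FOXA (TGTTTNC), HNF4 (CAAAGTC), NF-Y (CCAAT) and the TATA box (TATAAA), each searched on both strands.
Alb promoter: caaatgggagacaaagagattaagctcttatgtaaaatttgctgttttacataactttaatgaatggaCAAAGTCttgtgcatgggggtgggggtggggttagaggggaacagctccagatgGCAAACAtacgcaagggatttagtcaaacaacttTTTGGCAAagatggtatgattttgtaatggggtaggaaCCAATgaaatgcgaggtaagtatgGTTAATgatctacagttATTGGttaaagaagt
Afp promoter: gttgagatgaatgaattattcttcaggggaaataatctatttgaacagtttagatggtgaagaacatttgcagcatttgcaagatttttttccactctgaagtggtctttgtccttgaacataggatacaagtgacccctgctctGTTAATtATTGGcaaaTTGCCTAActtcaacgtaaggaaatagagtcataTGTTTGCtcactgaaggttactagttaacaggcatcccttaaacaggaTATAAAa
Afm promoter: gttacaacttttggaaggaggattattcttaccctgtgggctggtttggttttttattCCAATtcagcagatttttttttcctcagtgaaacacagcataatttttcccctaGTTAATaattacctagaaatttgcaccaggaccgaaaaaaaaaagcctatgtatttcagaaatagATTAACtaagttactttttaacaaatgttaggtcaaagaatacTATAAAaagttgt
Gc promoter: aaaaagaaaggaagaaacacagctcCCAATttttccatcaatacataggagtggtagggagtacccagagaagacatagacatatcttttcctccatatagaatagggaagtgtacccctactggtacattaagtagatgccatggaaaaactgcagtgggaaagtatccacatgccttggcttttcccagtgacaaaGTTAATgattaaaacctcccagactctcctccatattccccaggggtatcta

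All 4 promoters held the HNF1 word, which stood in 6.43% of 32851 RefSeq promoter windows. Counted back from the RefSeq start, it began at position -32 in Alb, -105 in Afp and -52 in Gc, and at -73 in Afm, which held a further copy upstream. The RefSeq start lay 27 bp before the GENCODE start in Alb and 23 bp before it in Afp. It lay 17 bp past the GENCODE start in Afm and at the same base in Gc. Distances to gene starts elsewhere are from the GENCODE start, and the bases between these starts in Alb and Afp were not searched for words. All 4 also held the NF-Y word, a common one (33.8% of windows). The C/EBP word occurred in Alb (-94) and Afp (-89), against 9.56% of windows, and the FOXA word in the same 2 promoters at -128 and -55, against 17.8%. The HNF4 word occurred in Alb (-182; 3.84% of windows) and the TATA word in Afp (-7) and Afm (-30; 12.4% of windows). A match to a word is a description of the letters and does not show that the factor binds there.

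Away from gene starts, 22 sites between 20 kb before Alb and 20 kb after Afm held a hotspot of all 5 liver sets, where a site is a run of hotspots from the 20 sets that overlap by at least 1 bp. The median liver score was at its ceiling in 7 of them, and the 4 narrowest are shown. The score is the -log10 of the false discovery rate (FDR) and stops at 100. Each sequence is the central 250 bases of the stretch that all 5 liver hotspots share, on the plus strand: chr5:90447677-90447926, chr5:90450069-90450318 and chr5:90457310-90457559 before Alb, and chr5:90485691-90485940 between Alb and Afp. All 4 lay outside annotated genes. The fifth, chr5:90500801-90501050, lay in an intron of Afp and in the antisense gene Gm43449, and is shown because every adult set, the mESC DNase-seq set and the mESC CTCF set had a hotspot there; it was chosen after its values were seen. Distances are from the gene start to the near edge of the site, negative when upstream. Capitals mark the FOXA and C/EBP words in the first 4 and, in the fifth, a core CTCF word, on the minus strand.
Alb site at -12.6 kb: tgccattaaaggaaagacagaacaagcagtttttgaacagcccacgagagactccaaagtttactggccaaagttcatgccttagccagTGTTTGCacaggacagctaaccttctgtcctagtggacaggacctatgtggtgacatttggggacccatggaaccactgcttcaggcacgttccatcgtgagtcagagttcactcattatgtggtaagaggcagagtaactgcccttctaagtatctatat
Alb site at -10.3 kb: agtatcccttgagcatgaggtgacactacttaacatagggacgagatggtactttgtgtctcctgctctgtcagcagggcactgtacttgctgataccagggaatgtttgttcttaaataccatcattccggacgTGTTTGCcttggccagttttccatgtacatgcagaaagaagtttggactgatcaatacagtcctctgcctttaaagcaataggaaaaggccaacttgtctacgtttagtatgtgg
Alb site at -3.2 kb: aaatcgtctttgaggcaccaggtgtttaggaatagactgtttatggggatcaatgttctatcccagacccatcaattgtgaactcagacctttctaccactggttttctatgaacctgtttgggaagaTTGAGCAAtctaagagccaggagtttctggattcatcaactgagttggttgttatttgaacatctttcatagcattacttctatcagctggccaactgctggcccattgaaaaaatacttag
Afp site at -4.4 kb: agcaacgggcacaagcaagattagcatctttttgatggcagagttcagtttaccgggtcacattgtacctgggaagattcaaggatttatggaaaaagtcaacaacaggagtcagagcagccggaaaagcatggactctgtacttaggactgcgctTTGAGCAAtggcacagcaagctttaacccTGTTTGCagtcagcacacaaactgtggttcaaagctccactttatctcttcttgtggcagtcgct
Afp site at 9.7 kb: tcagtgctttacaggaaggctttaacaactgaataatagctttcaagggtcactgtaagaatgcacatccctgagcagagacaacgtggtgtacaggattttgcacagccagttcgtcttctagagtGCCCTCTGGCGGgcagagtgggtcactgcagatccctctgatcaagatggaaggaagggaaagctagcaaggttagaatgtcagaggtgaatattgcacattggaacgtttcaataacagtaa

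The FOXA word stood in the sites at -12.6 kb and -10.3 kb of Alb and at -4.4 kb of Afp, against 24.9% of 141616 windows of the same length centred on stretches shared by the 5 liver sets across the genome. The C/EBP word stood in the Alb site at -3.2 kb and the Afp site at -4.4 kb, against 15.7% of those windows. No HNF1, HNF4, NF-Y or TATA word occurred in these 4 windows, which says only that those letters were not in them. The CTCF word occurred in 13.2% of the windows, and besides the fifth sequence the Alb site at -3.2 kb also held it, at base 219 of the window on the minus strand. The Alb sites at -10.3 kb and -3.2 kb and the Afp site at -4.4 kb met no hotspot of another adult tissue. Among the 28990 windows of such liver-only hotspots, the FOXA word stood in 28.9%, the C/EBP word in 19.5% and the CTCF word in 3.3%.

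The first question was how much of each member's chromatin was open in liver and elsewhere. Across the 4 members, hotspots covered a mean of 21.4% to 40.6% of the interval in liver and 0.226% to 5.43% in each other tissue, and for every member every liver set lay above every kidney, lung and B cell set. Alb was the most open member in liver, Afp and Afm were at 26.6% and 21.4% on average, and Gc varied the most between hybrids.

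The Alb interval was covered over 45.0%, 42.7%, 36.2%, 38.8% and 40.3% in the liver sets, taken from B6x129 to B6xSPRET in the order given above (40.6% ± 3.39, SD, n = 5 hybrids). In the same order of hybrids it was covered over 3.21%, 5.80%, 2.70%, 3.28% and 2.37% in kidney, 2.63%, 0.933%, 2.06%, 1.63% and 1.82% in lung, and 2.23%, 1.06%, 3.42%, 2.36% and 1.47% for B cells. Liver stood far above the other 3 tissues, whose ranges overlapped one another. The difference between the liver mean and the mean of the other tissues, taken within hybrids, was 38.1 percentage points, and only 19 of 21495 protein-coding genes with hotspots had a larger one.

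The Afp interval was covered over 33.5%, 29.6%, 23.3%, 23.5% and 23.2% in liver (26.6% ± 4.70). It was covered over 6.29%, 5.20%, 5.64%, 6.24% and 3.53% in kidney, 1.89%, 0.471%, 1.82%, 1.01% and 1.28% in lung, and 2.67%, 1.52%, 4.03%, 3.04% and 2.1% for B cells. The gene that hepatocytes shut down after birth thus lay in an interval that was open in adult liver, with kidney next and a difference of 23.5 points. Most of that coverage fell outside the gene itself, as described segment by segment below, and the interval shares flanking sequence with those of Alb and Afm.

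Hotspots covered the Afm interval over 37.6%, 20.5%, 16.4%, 16.5% and 16% in liver, where B6x129 stood above the other 4 hybrids. In kidney the shares were 5.74%, 5.41%, 5.50%, 6.06% and 4.21%, in lung 1.71%, 0.610%, 1.91%, 0.941% and 0.784%, and in B cells 0.550%, 0.397%, 0.587%, 0.611% and 0.545%. The difference was 19.0 points. For Gc the liver shares were 37.6%, 35.8%, 12.4%, 15.1% and 13.6%, with B6x129 and B6xC3H above the other 3 hybrids. Its kidney shares were 5.83%, 4.83%, 4.89%, 6.02% and 5.59%, its lung shares 4.55%, 2.64%, 5.98%, 5.59% and 2.43%, and its B cell shares 0.231%, 0.332%, 0.411%, 0% and 0.156%. Gc was the member with the most lung coverage and nearly none in B cells, and its difference was 19.6 points.

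**Figure D1:**
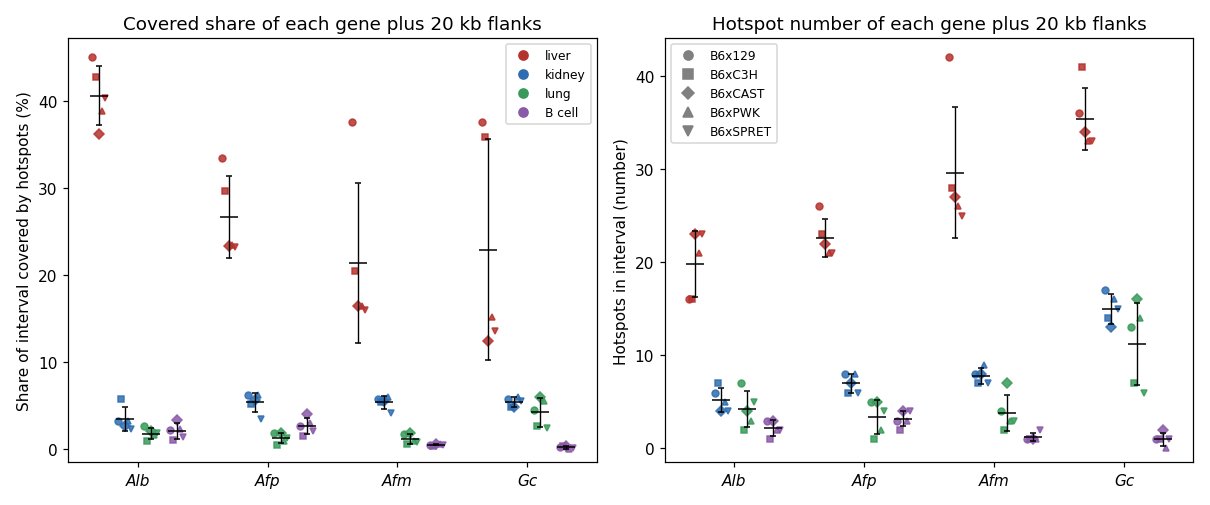
Share of each member interval covered by hotspots (percent, vertical axis) in the 4 tissues, with 1 point for each hybrid (marker shape) and bars for the mean and SD over 5 hybrids. All liver points lie above all points of the other tissues, and the Gc and Afm liver points spread from 12.4% and 16% up to 37.6%.

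Each of these 4 differences passed an exact two-sided permutation test in which the liver label was drawn within each hybrid. All had p = 0.000977, the smallest that the 1024 arrangements allow, and an adjusted p (Benjamini-Hochberg over 21495 genes) of 0.00472. The call is a common one, since 37.7% of all genes tested were called higher in liver by this rule, and 319 genes were called lower. The full separation of the liver sets from all others, found for 4 of 4 members, held for 14.4% of genes. Over all genes the median difference was 1.0 point, with quartiles of -0.0358 and 3.61 and a 95th percentile of 10.9. The differences of the members, 19.0 to 38.1 points, all lay above that percentile, with 140 genes above Afp, 274 above Afm and 253 above Gc. When each value was divided by the share of the whole genome called in its set, liver was still higher for every member. On that scale, however, 3242 genes were called higher in place of 8108. With the 75000 highest-scoring hotspots of each set the Afm and Gc differences were 10.7 and 12.1 points, and both were still called.

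**Figure D2:**
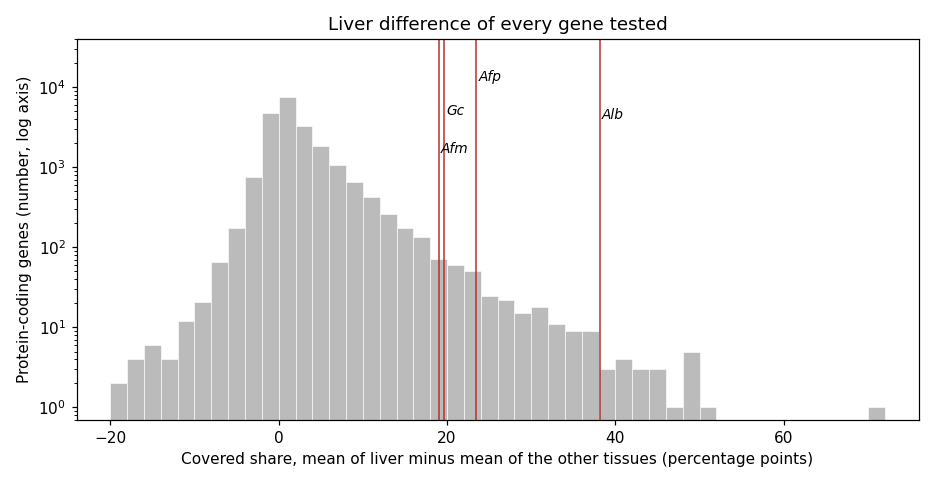
Histogram of the difference in covered share between liver and the other tissues (percentage points, horizontal axis) over 21495 protein-coding genes, with the number of genes on a log axis. The 4 marked members lie in the right tail, with Afm at 19.0, Gc at 19.6, Afp at 23.5 and Alb at 38.1 points, while the median gene lies at 1.0.

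Counts of hotspots also put liver first. Alb had 16, 16, 23, 21 and 23 hotspots in liver, 4 to 7 in kidney, 2 to 7 in lung and 1 to 3 in B cells. Afp had 26, 23, 22, 21 and 21 in liver, with 6 to 8 in kidney, 1 to 5 in lung and 2 to 4 in B cells. Afm had 42 in B6x129 liver and 25 to 28 in the other liver sets, 7 to 9 in kidney, 2 to 7 in lung and 1 or 2 in B cells. Gc had 33 to 41 in liver, 13 to 17 in kidney, 6 to 16 in lung and 0 to 2 in B cells. The differences were 15.9 hotspots for Alb, 18.1 for Afp, 25.3 for Afm and 26.3 for Gc, each with the same smallest exact p and an adjusted p of 0.00875. By this measure 23.6% of all genes were called higher in liver and 6.48% had every liver set above every other set, as had all 4 members. Alb had the smallest count in B6x129 and B6xC3H liver and also the largest coverage there, with single hotspots that ran across most of its body. With only the 75000 highest-scoring hotspots of each set, the differences were 6.27 for Alb, 6.8 for Afp and 7.53 for Afm, all still called. That of Gc was 4.53 with an adjusted p of 0.0729, and it was no longer called.

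The presence of a hotspot at the gene start, within 500 bp of its 5' end, gave 3 patterns among the 4 members. The Alb start had a hotspot in all 15 liver, kidney and lung sets and in 0 of 5 B cell sets, a pattern that 2.76% of 17168 genes with any start hotspot shared. At Alb the score was at its ceiling of 100 in all 5 liver sets. In kidney it was 5.97, 31.1, 11.8, 8.05 and 7.36, and in lung 30.2, 13.6, 36.1, 11.6 and 17.1 (B6x129 to B6xSPRET), all below liver. The Afm and Gc starts had one in the 5 liver and 5 kidney sets and in no lung or B cell set, which 0.856% of genes did. Liver scores at Gc were 100, 100, 50.8, 94.8 and 66.9 and kidney scores 3.46 to 9.81, so those groups did not overlap. At Afm they did, with 53.9 to 85.7 in liver and 18.1 to 94.2 in kidney. Scores depend on the depth of a set and are given as a description. The patterns depended on the number of hotspots kept. With the 75000 highest-scoring hotspots of each set, all 3 starts still had one in 5 liver sets, but the Alb start had one in 1 kidney and 5 lung sets and the Gc start in 1 kidney set, while the Afm start was as before.

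Afp had no start hotspot in any of the 20 adult sets, as did 21.1% of protein-coding genes. The nearest liver hotspot lay 647 bp past the start in B6x129, and 842 to 932 bp past it in the other 4 hybrids. That hotspot scored 56.4, and those of the other hybrids 1.68 to 4.59. In mESCs none of the 4 members had a start hotspot in either assay.

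No member was called by the start test. Its exact p was 0.0625 for Afm and Gc (adjusted p = 0.926) and 0.341 for Alb (adjusted p = 1). Kidney also had the start hotspot in all 5 hybrids at these genes, as did lung at Alb, so drawing such a tissue as liver left the difference unchanged. The smallest p that the 1024 arrangements of this permutation test allow was 0.000977, and the smallest adjusted p over all genes was 0.112. Over all 17168 genes 0 were called (0% of those tested), 448 had an unadjusted p under 0.05 with liver higher, and 0.821% had a hotspot in every liver set and in no other set, as no member did.

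Seen along the chromosome, coverage was not even. The Alb gene body was the most covered stretch, at 94.4%, 94.9%, 85.2%, 90.4% and 89.6% in liver (90.9% ± 3.96), against 5.29% in kidney, 2.24% in lung and 0% for B cells on average. The 20 kb before Alb were covered over 14.1% to 20.1% in liver. The 14.1 kb between Alb and Afp were covered over 28.1%, 24.1%, 21.3%, 22.5% and 21.7% in liver and over 0% in every kidney and lung set. In B cells the mean there was 2.02%.

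The Afp body differed from its surroundings. It was covered over 19.0%, 11.7%, 6.88%, 7.29% and 9.44% in liver, over a mean of 6.0% ± 1.66 in kidney, 3.94% ± 1.66 in lung and 6.99% ± 1.43 for B cells, and these ranges overlapped. In B6xCAST and B6xPWK the B cell value (8.13% and 8.33%) was above the liver value of the same hybrid. Over the gene body alone liver was still called higher at Afp, by 5.23 points (exact permutation test, adjusted p = 0.0207), as were 6333 genes. At the Alb and Afm bodies, in contrast, every liver set lay above every other set.

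Beyond Afp, the 10.0 kb to the Afm start were covered over 38.9%, 36.8%, 26.8%, 23.8% and 18.2% in liver, 11.3% ± 1.17 in kidney and 0% in every lung and B cell set. The Afm body was covered over 27.7% in B6x129 liver and 8.57% to 13.2% in the other liver sets, against 2.62% in kidney on average. In the 20 kb after Afm the liver values were 66.6% in B6x129 and 30.8% to 33.9% in the other 4. That flank also holds parts of the genes Gm42109 and 5830473C10Rik, so its coverage cannot be assigned to Afm alone.

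**Figure D3:**
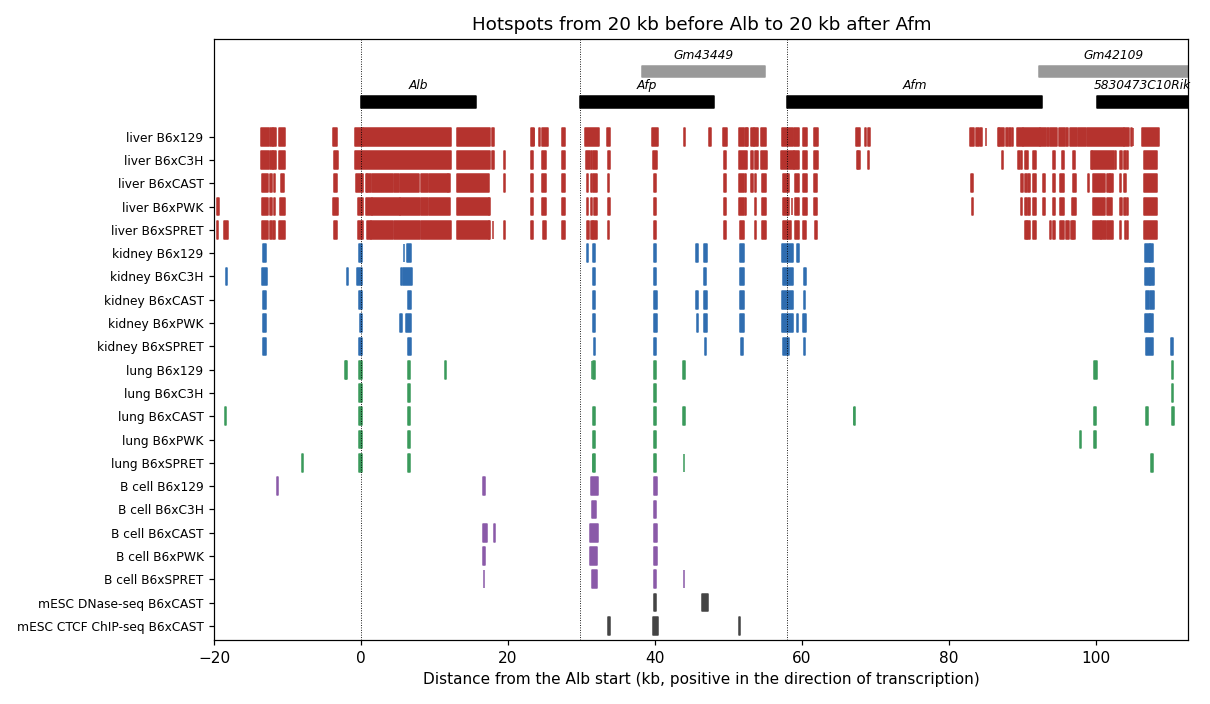
Hotspots of the 20 adult sets and of the 2 mESC sets over the stretch from Alb to Afm, plotted by distance from the Alb start (kb, horizontal axis) with 1 row per set and genes drawn above (protein-coding in black, non-coding in grey). Liver rows are dense over the Alb body, which is 90.9% covered on average, while the other rows hold few hotspots, among them 1 inside Afp that recurs in all 20 adult rows.

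Taken as one locus, the Alb to Afm stretch held 58, 44, 50, 47 and 48 hotspots in liver, covering 53068, 39052, 32408, 33898 and 34376 bp. Kidney sets held 11 to 14 hotspots over 4461 to 7267 bp, lung sets 4 to 11 over 975 to 2743 bp, and B cell sets 2 to 4 over 884 to 2342 bp. The liver sets were covered over 29.1% ± 6.39, against 4.49% for kidney, 1.43% for lung and 1.19% for B cells, a difference of 26.7 points (exact permutation p = 0.000977, n = 5 hybrids, two-sided, the smallest possible). The difference in number was 41.3 hotspots, or 13.8 with the 75000 highest-scoring hotspots of each set.

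Hotspots of the locus were also wide. Their median width in liver was 369 to 480 bp in the 5 hybrids, against 263 to 282 bp over the whole genome of the same sets. This was not particular to liver, since the kidney medians were 342 to 453 bp, against 263 to 282 bp over the genome. Medians were 212 to 294 bp in lung and 203.5 to 522.5 bp in B cells. In B6x129 liver the widest ran over 11867 bp (chr5:90461222-90473088) and covered 75.6% of the Alb body, and it ranked 33 among the 295565 hotspots of that set. In B6xC3H it ran over 12967 bp (chr5:90460122-90473088), ranked 16 of 215510, and joined the Alb start to 77.6% of the body. In B6xCAST, B6xPWK and B6xSPRET the same stretch was called as several hotspots, and the widest (4369, 4387 and 4458 bp) instead began at chr5:90473893 and ran past the 3' end of Alb. They too ranked high, at 51, 89 and 41 of their sets. The widest hotspot of the locus was 1015 to 1571 bp in kidney sets, 328 to 419 bp in lung sets and 588 to 1058 bp in B cell sets.

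Gc showed a stronger split by hybrid. Its liver hotspots covered 30193 bp in B6x129 and 28814 bp in B6xC3H but 9998, 12160 and 10947 bp in B6xCAST, B6xPWK and B6xSPRET. The widest spanned its start in B6x129, over 13078 bp (chr5:89447946-89461023), and was 7572 bp in B6xC3H but 634, 1809 and 1652 bp in the other 3. The number of hotspots differed little (33 to 41), so the split lay in their width. Across all genes, 53.2% also had both B6x129 and B6xC3H liver sets above the other 3 liver sets, and the median ratio of the 2 group means was 1.33. For the members, this ratio was 1.14 at Alb (43.8% against 38.4%), 1.35 at Afp, 1.78 at Afm and 2.67 at Gc (36.7% against 13.7%). Among all genes the Alb ratio was at percentile 18.6 and the Gc ratio at percentile 97.3. The groups were formed after the values were seen, and no test was made.

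**Figure D4:**
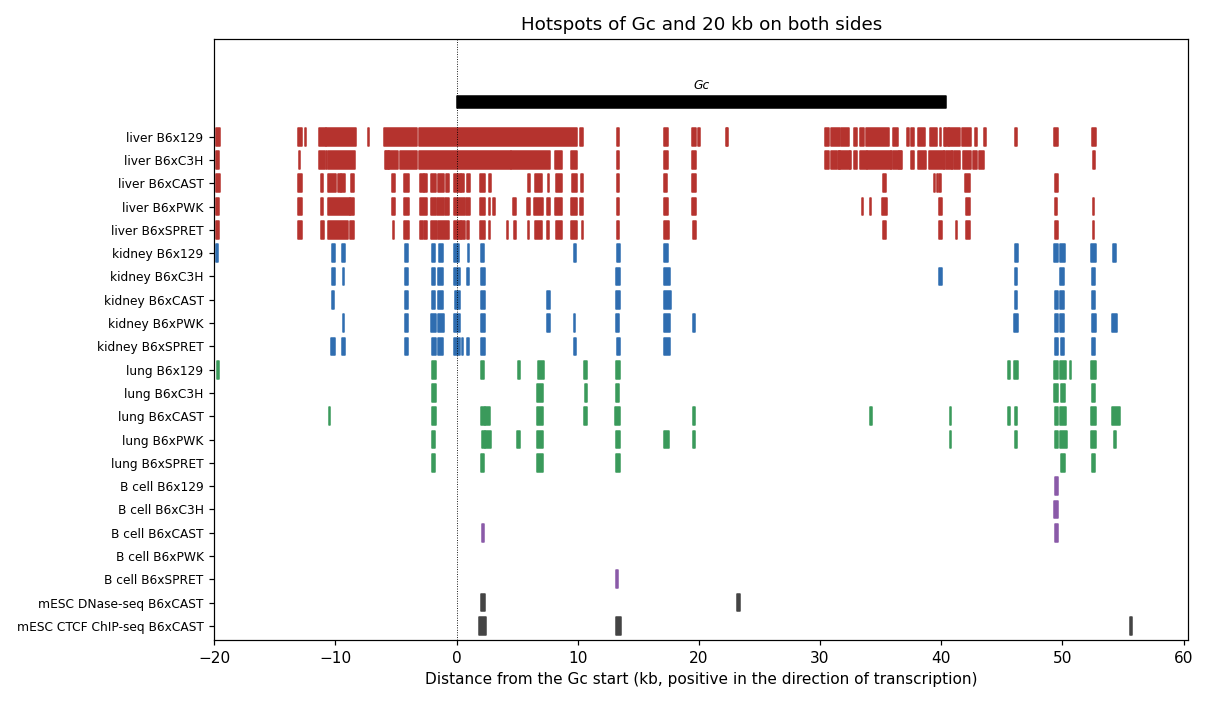
Hotspots of the adult and mESC sets over the Gc interval, plotted by distance from the Gc start (kb, horizontal axis, positive into the gene), with 1 row per set. The B6x129 and B6xC3H liver rows hold long blocks around the start (widest 13078 and 7572 bp) where the other 3 liver rows hold separate short hotspots.

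Site by site, the Alb to Afm stretch held 65 merged sites, of which 56 had a hotspot in at least 1 liver set and 27 in all 5. Of those 27, 17 had no hotspot in any kidney, lung or B cell set (63.0%), against 18.7% of such sites over the genome. Among all 65 sites the liver-only share was 26.2%, against 3.03% of sites over the genome. Of the 41 sites around Gc, 36 had a liver hotspot, 11 had all 5 and 2 were liver-only (18.2% of the 11, 4.88% of all). Merging joins separate elements wherever 1 set has a wide hotspot. When the hotspots of B6xCAST liver were counted singly, 43 of 50 in the Alb to Afm stretch overlapped a hotspot of all 5 liver sets and 28 were liver-only. Around Gc the same count gave 30 of 34, with 12 liver-only. The number of liver-only merged sites around Gc was 6 without B6x129 and 5 without B6xC3H. With the 75000 highest-scoring hotspots of each set there were 5 liver-only sites in the Alb to Afm stretch and 0 around Gc.

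Among the sites before Alb, those at -10.3 kb and -3.2 kb shown above were liver-only, whereas that at -12.6 kb was also called in all 5 kidney sets. Between Alb and Afp, the B6xCAST hotspots at -6.44, -4.65 and -2.06 kb from the Afp start were each called in all 5 liver sets and in no other adult set, with scores of 29.6, 100 and 15.3. A 4369 bp liver hotspot over the 3' end of Alb was met by a hotspot of 4 B cell sets, in B6xCAST at chr5:90477462-90478068.

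Inside Alb, a site with an edge 6.35 kb past the start, at chr5:90467245-90467676 in B6xCAST kidney, was called in all 15 liver, kidney and lung sets and in no B cell set. It overlapped an Alb exon. It scored 61.4 in that kidney set, above the score of 11.8 at the Alb start in the same set.

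Inside Afp there were sites that did not follow liver. Hotspots beginning 1283 to 1553 bp past the Afp start were called in 5 of 5 B cell sets, with widths of 915, 588, 1040, 1058 and 740 bp and scores of 68.9, 22.9, 100, 53.1 and 41.7 (B6x129 to B6xSPRET). They overlapped an Afp exon, and hotspots of 5 liver, 5 kidney and 4 lung sets met them. In B6xCAST the B cell hotspot was 1040 bp wide, against 499 bp in liver, 255 bp in kidney and 362 bp in lung. It was the widest hotspot of the whole Alb to Afm stretch in B cells in that hybrid.

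The site 9.7 kb past the Afp start, shown above with its CTCF word, was the only one of the 65 with a hotspot in all 20 adult sets, as had 3.77% of sites over the genome. In mESCs it held a DNase I hotspot (chr5:90500782-90501090, score 26.0) and a CTCF hotspot (chr5:90500647-90501312, score 100). A further site near the 3' end of Afp, at chr5:90507621-90507944 in B6xCAST kidney, was called in 5 kidney sets and in no liver set. It overlapped an Afp exon, and an mESC hotspot lay over it.

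Upstream of Afm, the B6xCAST hotspots at -8.32 and -2.94 kb were liver-only, while that at -5.95 kb (573 bp, score 100) was shared with 5 kidney sets. The antisense gene Gm43449, which begins between Afp and Afm and runs into Afp, had a start hotspot in 5 liver sets and in no other set. At the far end, Gm42109 had a start hotspot in all 20 sets, and 5830473C10Rik in 5 liver and 3 lung sets.

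Around Gc, liver shared more of its sites. A site at -1.72 kb from the Gc start was called in 5 liver, 5 kidney and 5 lung sets, and one 6.45 kb into the gene in 5 liver and 5 lung sets but no kidney set. An intronic site 1.97 kb into the gene was called in 5 liver, 5 kidney, 4 lung and 1 B cell sets, and in mESCs it held both a DNase I and a CTCF hotspot. Beyond the 3' end, 49.8 kb from the start, a site was called in 5 kidney and 5 lung sets and in no liver set. The 20 kb after Gc were the one flank where liver (2.58% to 14.7%) overlapped the other tissues, with a mean of 5.47% in kidney and 7.25% in lung.

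The mESC sets held little at either locus. DNase I hotspots covered 1054 bp (0.795%) of the Alb to Afm stretch and 593 bp (0.738%) of the Gc interval, in 2 hotspots each, of 115267 in that set. CTCF hotspots numbered 3 in each, over 1017 and 1108 bp.

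Other genes of the same kind were read from fixed lists. Of 23 genes for plasma proteins made by liver, 23 were called higher in liver by covered share (37.7% of all genes were), and 21 had every liver set above every other set (14.4% of all genes had). Their median difference was 16.7 points, against 1.0 over all genes. Ahsg (fetuin-A) had the largest at 49.3 ± 6.13 points, with 52.1% in liver and 2.82% elsewhere, followed by Trf (transferrin) at 37.8 and Ttr (transthyretin) at 37.5. At 38.1, Alb would stand after Ahsg in that list. The smallest differences were those of Serpina7 (thyroxine-binding globulin) at 5.13 and A1bg at 6.14. A start hotspot was found in all 5 liver sets for 21 of the 23, against 73.4% of the 17168 genes with any start hotspot, and in all 5 liver sets and no other set for 5, against 0.821%.

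Of 13 regulators known to act on Alb or Afp, 11 were called higher in liver and 5 had every liver set above all others (37.7% and 14.4% of all genes), with a median difference of 13.1 points, against 1.0 over all genes. Foxa2 had the largest at 30.6 (adjusted p = 0.00774 by the exact permutation test), then Cebpa at 25.4, Hnf4a at 21.8, Foxa3 at 20.4 and Nr5a2 at 17.6. Not called were Foxa1, with a difference of 13.6 (adjusted p = 0.0829 by the exact permutation test), and Zhx2, a repressor of Afp in adult liver, with 0.354 (adjusted p = 0.830). A start hotspot was present in all 5 liver sets for 12 of the 13, against 73.4% of genes with any start hotspot.

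By correlation of covered share over the 20 sets, the genes most like Alb were Sult2a5 (Pearson r = 0.997), Sult2a6 and Apcs (0.995 each). Those most like Afp were C8b (0.995), Cyp2d40 (0.994) and 4930503B20Rik (0.993), those most like Afm were Agt (0.995), Hsd17b12 (0.994) and Sdc2 (0.992), and those most like Gc were Akr1c14 (0.996), Iigp1 (0.992) and Cyp2f2 (0.991). The 20 points share hybrids and set depths, and the values are a description over about 18225 genes with a mean share of at least 1%.

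RNA-seq gave counts for the same genes in 4 liver, 4 kidney, 4 lung and 5 B cell samples. The tables were shallow, with 283725 to 809337 counts per sample, so a count of a few reads is uncertain. The libraries were made with a stranded kit, and the strand setting of the counting was not given in the sources used here. Its part in the levels was not tested, so the values are those of the deposited tables and may not give the full transcript level. In these tables Alb had the most liver reads of the 4 members, Gc had fewer, and Afp and Afm had a few or none.

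The Alb counts in the 4 liver samples were 389, 250, 95 and 767, or 645, 448, 158 and 1142 TPM, a length-scaled transcript level. In kidney they were 0, 1, 1 and 0, in lung 1 in all, and in B cells 0. The liver samples spread widely but did not overlap the others. As a share of all counts Alb was 2450-fold higher in liver than in the other 13 samples together (exact 95% interval 838 to 11900, counting error only). Its log2 fold change was 11.78 (SE 0.51, edgeR quasi-likelihood test with Benjamini-Hochberg adjustment, adjusted p = 5.55e-13). By mean TPM Alb ranked 150 among genes in liver, although its transcript is known as one of the most abundant in that tissue. Whether the strand setting bears on this was not tested.

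Gc, the vitamin D binding protein gene, had 23, 9, 11 and 43 counts in liver (43.6, 18.4, 21.0 and 73.5 TPM), 0, 1, 6 and 3 in kidney and 0 in lung and B cells. The lowest liver sample was above the highest kidney sample. Its log2 fold change was 7.46 (SE 0.66, edgeR, adjusted p = 6.89e-08). By this test 21.8% of 4479 genes were higher in liver and 972 were lower, with a median log2 fold change of -0.35 over all genes, and both members lay far above it. The balance of calls depended on the scaling, since limma on log2(TPM + 1) called 370 higher and 3168 lower, with Alb and Gc still higher.

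Afp had 1, 3, 0 and 1 counts in liver and 1 count in all other samples together. Afm had 2, 0, 0 and 3 in liver and 1 in each kidney sample. Neither passed the filter on low counts. Their ratios of count shares, liver over the rest, were 24.5 (2.74 to 1160) for Afp and 6.13 (1.32 to 30.9) for Afm, with wide exact 95% counting intervals. With no filter on low counts, edgeR gave log2 fold changes of 3.82 for Afp (adjusted p = 0.0032) and 3.33 for Afm (adjusted p = 0.0082). The open interval around Afp in adult liver thus went with 5 reads of Afp in 4 samples.

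The neighbour Gm42109, on the opposite strand, had 63, 82, 47 and 17 counts in liver and at most 2 in any other sample (log2 fold change 8.30, SE 0.43, edgeR, adjusted p = 1.76e-14). Over the 4 liver samples that came to 209 counts, against 5 for Afm. It shares 108 exon bases with Afm, 11.9% of its own, and whether reads of one were counted for the other was not tested.

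**Figure D5:**
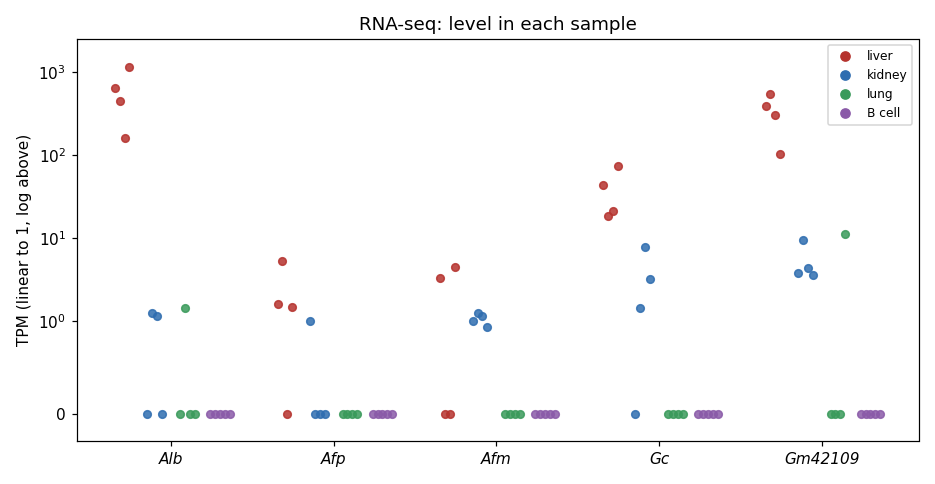
TPM of the 4 members and of the neighbour Gm42109 in each RNA-seq sample by tissue, on an axis that is linear up to 1 and logarithmic above. Alb lies between 158 and 1142 TPM and Gc between 18.4 and 73.5 TPM in liver, while Afp and Afm are at 5.29 TPM or lower in every sample.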

How the data were processed

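The adult DNase-seq hotspots, called by the authors at an FDR of 5% after aligning reads with BWA to mm10 and pooling the libraries of a hybrid and tissue, were deposited as 20 sets with a score, the -log10 of the FDR. The mESC DNase-seq and CTCF hotspots were deposited with the same -log10 score. The RNA tables, made by the authors with Trimmomatic, STAR and RSEM, were deposited with expected counts and TPM per gene, and expected counts were rounded to whole numbers here.

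Hotspots were intersected with GENCODE vM21 genes and 20 kb flanks (Python 3.11.15, numpy 2.4.6, pandas 2.3.3, scipy 1.17.1, pyfaidx 0.9.0.4, matplotlib 3.10.9). Covered share, number and start hotspots (within 500 bp) were compared over all protein-coding genes between liver and the mean of the other 3 tissues, by an exact two-sided permutation test within hybrids. The libraries of a set were not separable, so the hybrid was the repeat. The hotspot p-values compare the liver label with other tissue labels drawn within hybrids. They do not measure the spread between hybrids or between animals. RNA was tested with edgeR 4.0.16 (R 4.3.3, TMM, quasi-likelihood, all 17 samples, tissue as the group), with limma 3.58.1 and DESeq2 1.42.0 as alternatives. The RNA labels do not state separate animals, so those p-values measure the spread between samples. Adjusted p-values under 0.05 were called. Intervals and floors cover counting error only. The steps were tested on simulated data.

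Named were the 4 members, genes touching their intervals, the extremes of a plasma protein list and a regulator list, the 3 genes most correlated with each member, and the 4 liver sites of highest median score away from a start. Among sites tied at the ceiling the narrowest were taken, a choice added after the values were seen. The members, lists and tests were chosen with earlier results of these data known. Alternatives were a stricter FDR, equal numbers of hotspots, scaling by the genome, other flanks and windows, labels drawn over all sets, and leaving out each hybrid or liver RNA sample.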

Additional observations from a re-analysis of the deposited data

Results flagged for a closer look

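Within groups of 4 or 5 values, 12 of 73 groups held a value far from the rest by Dixon's criterion. Its rate of about 1 in 20 groups holds for separate groups of continuous values. Groups here overlapped, and where all other values were equal any differing value was flagged. The number flagged therefore cannot be set against that rate. In B6x129 liver, Afm covered share was 37.6% (others 16% to 20.5%), its hotspot number 42 (others 25 to 28), its body 27.7% covered (others 8.57% to 13.2%) and the 20 kb after it 66.6% (others 30.8% to 33.9%). The B6x129 liver set also held the most hotspots of all sets, 295565. In B6xC3H kidney, Alb covered share was 5.80% (others 2.37% to 3.28%) and the 20 kb before Alb were covered over 7.10% (others 2.98% to 3.41%).

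The remaining values were small. The 20 kb before Alb were covered over 3.44% in B6x129 lung (others 1.22% to 1.86%) and over 0.475% in B6x129 B cells (others 0%), the Afm body over 0.364% in B6xCAST lung (others 0%), and Afm had 2 hotspots in B6xSPRET B cells (others 1). In RNA, Alb was at 1.43 TPM in lung sample 2 and Afp at 1.0 TPM in kidney sample 1, with the other samples of those tissues at 0.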

How the results depend on the processing

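Of 255 recomputed values, 240 kept their direction and call or stayed close, 14 counts moved by over 1.5 times, 1 call was lost and 0 reversed. Scaled to the genome of each set, genes higher in liver were 3242 by covered share (8108 as reported) and 2220 by number (5068 as reported). With the 75000 highest-scoring hotspots per set, genes higher by number were 2805, the member differences in number were 6.27 (Alb), 6.8 (Afp), 7.53 (Afm) and 4.53 (Gc, adjusted p = 0.0729), and liver-only sites were 5 (Alb to Afm) and 0 (Gc). At an FDR of 1% Gc had 1 such site. Hotspots of B6xCAST liver counted singly gave 28 and 12. Labels drawn over all 20 sets gave 184 genes with more start hotspots in liver, in place of 0. In RNA, genes higher in liver were 1690 with no filter on low counts and 370 by limma with either pseudocount (1 or 0.1), against 978.

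Leaving out 1 hybrid gave 5760 to 8946 genes by covered share and 3397 to 4229 by number. Covered differences ranged over 37.1 to 39.3 (Alb), 21.9 to 24.5 (Afp), 15 to 20.3 (Afm) and 16 to 22.4 points (Gc), and liver-only sites over 17 to 19 (Alb to Afm) and 2 to 6 (Gc). Over all alternatives the adjusted p of the covered differences lay between 0.000459 and 0.0207. Leaving out 1 liver RNA sample gave log2 fold changes of 10.9 to 11.9 for Alb and 6.74 to 7.72 for Gc. The hotspot tests were made within hybrids, and drawing labels over all 20 sets lost no call of a member. With hybrid as covariate, in the 16 RNA samples whose hybrid is not in doubt, the log2 fold changes were 11.72 for Alb and 7.40 for Gc, and 1000 genes were higher in liver. The number of hotspots differed between sets, from 78387 to 295565, and low RNA counts limit Afp and Afm.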
